A study of Mus musculus with 4 samples.

Results

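Structural RNA repeats are the entries of the repeat annotation that carry the name of a ribosomal RNA (rRNA), transfer RNA (tRNA), small nuclear RNA (snRNA), small cytoplasmic RNA (scRNA), the RNA of the signal recognition particle (srpRNA) or, under the bare class name RNA, the 7SK RNA. They were chosen by the class in their name among the repeat sense and repeat antisense entries of the count table. There were 62 of them among 1398 repeat entries and 25745 entries in all, 34 for reads in the orientation of the element and 28 for reads in the opposite orientation. Because 22 elements were listed on both strands, the 62 entries were 40 distinct elements.

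Adult testes of C57Bl/6J mice at postnatal day 60 were compared between Nef-sp-/- males, homozygous for a 23-bp out-of-frame deletion made with Cas9 nickase and a pair of guide RNAs, and Nef-sp+/- males, which carry the same deletion on only 1 allele. The genotypes are called homozygous and heterozygous where their values are set side by side. Strand-specific libraries of total RNA were sequenced after removal of abundant rRNA with Ribo-Zero, 2 per genotype, with totals of 20659865 to 34442517 counted reads. The mutants form a single line from founders with this deletion, and no library of wild-type testis was analysed here. The labels number the libraries and do not say whether they came from separate animals, so that the p-values measure only the spread between these libraries. The deletion was checked on Nef-sp (2610020H08Rik) itself, which had normalized exon counts of 1843 and 1693 in heterozygous against 407 and 497 in homozygous libraries (log2 fold change -1.97, SE 0.09, edgeR adjusted p 4.12e-06). All 8 germ cell markers examined had reads in every library, with Prm1, the protamine of spermatids, at 3090 to 3640 RPM (reads scaled to 1000000 counted reads per library), but Zbtb16, a marker of undifferentiated spermatogonia, had only 1 or 2 reads per library. All 4 markers of Sertoli and Leydig cells also had reads in every library, and none of 3 markers of other tissues (Alb, Ins2 and Myh6) was listed in the table.

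Structural RNAs act as RNA. rRNA forms the ribosome, tRNA brings amino acids to it, 7SL is the RNA of the particle that takes secretory proteins to the endoplasmic reticulum, 7SK holds back the elongation factor P-TEFb, and the U RNAs cut out introns or guide rRNA processing. Their genes are transcribed by RNA polymerase I, II or III, and many of their precursors are trimmed at the 3′ end by exoribonucleases before they function. NEF-sp is a 3′ to 5′ exoribonuclease. In cultured cells its human form enters the nucleolus, the place where rRNA is made, while its mouse form enters the nucleus but not the nucleolus. Its yeast relative Rex1p matures 5S rRNA and a tRNA of arginine, so that the homozygous mutants allow these RNA classes to be compared without a full-length enzyme.

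An element stands for many related copies, and the 206 annotated U1 genes, for example, held 196 distinct sequences. U1 and U2, the most read snRNAs, are shown by the most frequent identical copy among their annotated genes in GENCODE vM1, on mouse genome build mm9 and written 5′ to 3′. The U1 copy lies at chr11:87236369-87236532 on the plus strand (206 annotated genes, 7 perfect matches), and its capitals mark the bases that pair with the 5′ splice site. The U2 copy lies at chr11:101488680-101488870 on the plus strand (51 annotated genes, 4 perfect matches), with the bases that recognize the branch point in capitals.
U1: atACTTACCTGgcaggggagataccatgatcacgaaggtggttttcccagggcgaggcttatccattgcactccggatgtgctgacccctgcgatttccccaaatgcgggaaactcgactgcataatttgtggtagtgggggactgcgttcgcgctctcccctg
U2: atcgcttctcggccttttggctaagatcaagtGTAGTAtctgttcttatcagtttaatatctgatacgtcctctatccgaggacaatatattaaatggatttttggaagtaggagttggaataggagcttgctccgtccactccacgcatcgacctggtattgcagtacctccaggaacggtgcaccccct

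The mitochondrial tRNAs are shown because that of serine held most of the antisense tRNA reads and that of leucine was the tRNA entry with the most sense reads. They were matched to their genes by amino acid and codon, and the capitals mark the anticodon. Mitochondrial tRNA-Ser for TCA is mt-Ts1, at chrM:6870-6938 on the minus strand of mm9, and its first 3 bases in genome order overlap the end of mt-Co1, which lies at chrM:5328-6872 on the plus strand. The mt-Ts1 sequence had 3 perfect matches in the build, 2 of them outside chromosome M, and reads from these places cannot be told apart by sequence. Mitochondrial tRNA-Leu for TTA is mt-Tl1, at chrM:2676-2750 on the plus strand, directly between the rRNA gene mt-Rnr2 and mt-Nd1, with 1 perfect match.
mt-Ts1: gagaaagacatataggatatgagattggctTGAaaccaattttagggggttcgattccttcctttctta
mt-Tl1: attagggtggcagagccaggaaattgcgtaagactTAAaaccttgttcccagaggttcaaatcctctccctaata

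A few elements held nearly all of the reads. Structural RNA repeats took 80.2% and 81.1% of the repeat sense reads in heterozygous against 80.5% and 79.2% in homozygous libraries. Over the 4 libraries, 7SL alone took 35.2% of repeat sense reads, 7SK 18.1%, the large-subunit rRNA LSU 16.0%, U2 5.75% and U1 4.09%. On the antisense strand the structural elements took much less, at 6.17% and 8.97% of repeat antisense reads in heterozygous against 13.5% and 9.47% in homozygous libraries. The small-subunit rRNA SSU took 3.78% of repeat antisense reads, mitochondrial tRNA-Ser 2.73% and LSU 2.42%. LSU and SSU here mean the repeat entries LSU-rRNA_Hsa and SSU-rRNA_Hsa. How closely their reads follow the mouse rRNAs was not tested. These are shares of reads and not levels per length, since the table gives no length for a repeat.

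**Figure D1:**
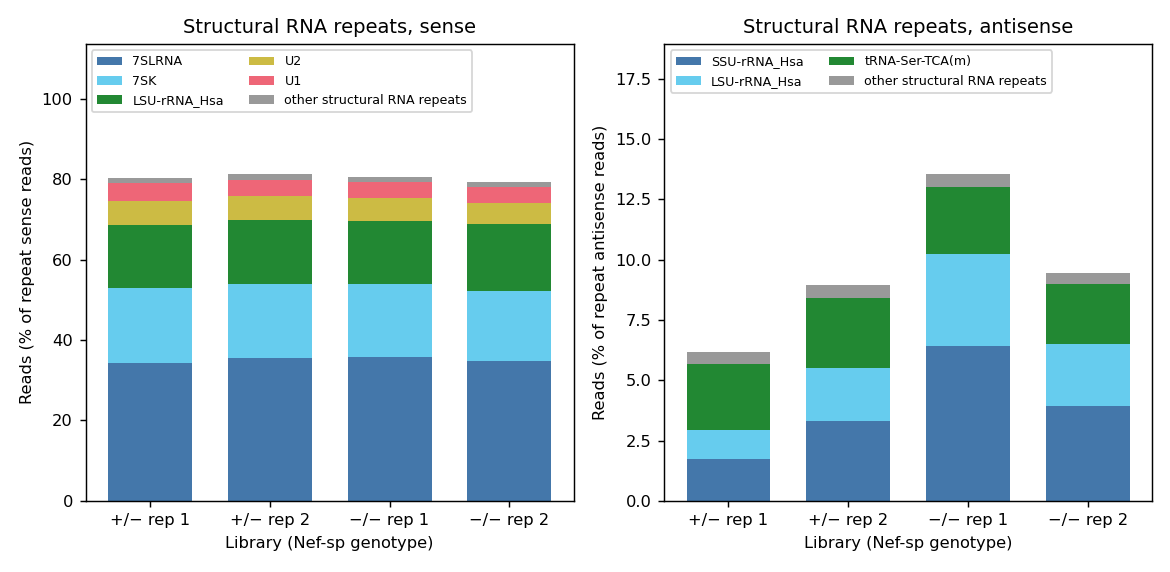
Reads of structural RNA repeats as a percentage of all repeat sense reads (left) and all repeat antisense reads (right), 1 stacked bar per library and 1 colour per element. The sense bars end between 79.2% and 81.1%, while the antisense bars run from 6.17% to 13.5% and differ mainly in the SSU and LSU segments.

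By class, the sense reads differed little between the genotypes. Summed rRNA reads, in RPM, were 23437 and 23188 in heterozygous against 22216 and 24587 in homozygous libraries, a difference of means of 0.381%. Summed 7SL reads were 50887 and 51594 against 50810 and 51216 RPM, a difference of -0.443%. Neither class separated the genotypes.
snRNA reads summed to 16914 and 16130 RPM in heterozygous against 15184 and 15099 in homozygous libraries, a difference of -8.36%. For 7SK the values were 27784 and 26590 against 25757 and 25411 RPM (-5.90%). tRNA reads summed to only 27.5 and 26.4 against 26.1 and 24.6 RPM (-5.92%). In these 3 classes both Nef-sp-/- libraries lay below both Nef-sp+/- libraries in RPM. As shares of repeat sense reads the tRNA sums overlapped, at 0.0185% and 0.0182% in heterozygous against 0.0184% and 0.0167% in homozygous libraries. scRNA reads summed to 237 and 194 against 170 and 198 RPM (-14.6%), and the libraries overlapped. No test was made on class sums, whose members were chosen with earlier results known.

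On the antisense strand, rRNA was the class that separated most. Antisense rRNA reads summed to 632 and 1037 RPM in heterozygous against 2081 and 1535 in homozygous libraries, a log2 ratio of means of 1.11, and both Nef-sp-/- libraries were the higher ones. The SD between the 2 libraries was 287 RPM in the heterozygotes and 386 in the homozygotes. Antisense tRNA reads were 593 and 553 against 577 and 609 RPM, and antisense snRNA reads 19.2 and 20.2 against 20.2 and 18.2 RPM. Antisense scRNA reads were 26.7 and 24.7 against 24.4 and 27.1 RPM, and those of 7SL 40.9 and 42.5 against 39.5 and 41.9 RPM. In each of these 4 classes the genotypes overlapped. Antisense 7SK reads, at 4.70 and 4.70 against 4.22 and 3.77 RPM, were lower in both Nef-sp-/- libraries, but overlapped on the scale of the tests below.

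Element by element, counts were scaled within the sense or antisense repeat category to the effective library size (normalized counts) and tested with edgeR, with p-values adjusted over all repeat entries of that category. Of the 34 sense entries 25 had enough reads to be tested, and the 9 others were all tRNAs with 5 to 40 reads over the 4 libraries. Of the 28 antisense entries 19 were tested, and the 9 others, with 5 to 44 reads, were U1, U4 and 7 tRNAs. No sense member passed an adjusted p of 0.05 with edgeR or DESeq2. Of the 578 repeat sense entries tested, 0.692% did with edgeR and 0.519% with DESeq2. At an unadjusted p below 0.05 edgeR gave 7 of the 25, against a background of 5.02%. DESeq2 gave 4, for which the share over all entries was not computed. All 7 had a negative log2 fold change, where 2.25% of all entries were below that p and lower. The log2 fold change was below 0 in 20 of the 25 members and in 48.3% of all entries tested. The median log2 fold change was -0.13 over the members and 0.01 over all sense entries tested. In 12 members both Nef-sp-/- libraries lay below both Nef-sp+/- libraries, and in 2 members they lay above, where the background was 15.6% and 14% of the entries tested. Leaving out a library leaves its genotype with 1, which is then assumed to vary like the 2 libraries of the other genotype. These p-values therefore rest on the spread of that other genotype and on the spread that edgeR shares over all entries. Without Nef-sp-/- replicate 1, 4 members passed the adjusted threshold (5S, HY3, U4 and U5) among 10 of 588 sense entries (1.7%). Without Nef-sp+/- replicate 2 there were 2 members (4.5SRNA and SSU) among 5 of 592 entries (0.845%), and without Nef-sp-/- replicate 2 there was 1 (4.5SRNA) among 7 of 587 (1.19%). Without Nef-sp+/- replicate 1 no entry passed.

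**Figure D2:**
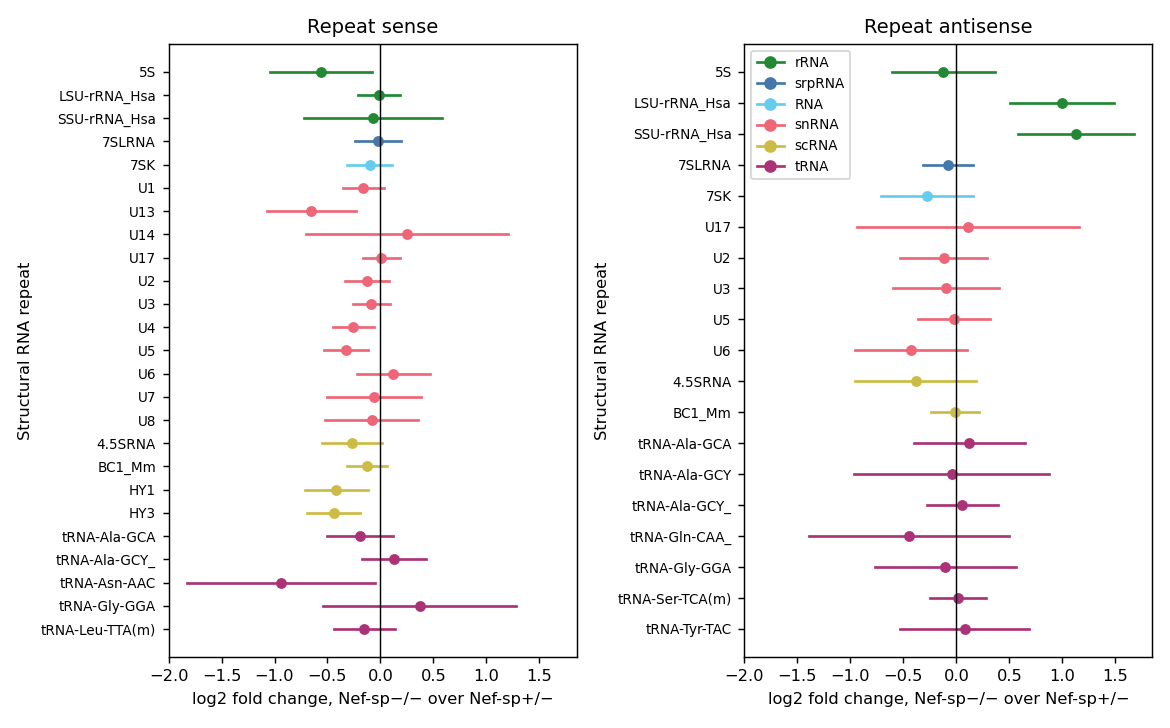
log2 fold change, homozygous over heterozygous libraries (x axis), for each tested structural RNA repeat (y axis, coloured by class), repeat sense on the left and repeat antisense on the right. Points are edgeR estimates and bars are 95% confidence intervals from 2 libraries per genotype. Most sense points sit slightly below 0, and on the antisense side LSU (0.999) and SSU (1.13) stand to the right of all others.

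The rRNAs differed from one another. 5S rRNA, the polymerase III product of the large ribosomal subunit, had normalized sense counts of 249 and 448 in heterozygous against 273 and 207 in homozygous libraries. Nef-sp+/- replicate 2 stood above the other 3 libraries, which lay close together. The log2 fold change was -0.56 (SE 0.22, edgeR p 0.0247, adjusted p 0.744), and without Nef-sp+/- replicate 2 it was -0.06.
LSU, the entry named for the large-subunit rRNA, had sense counts of 545230 and 583179 against 558607 and 559998. Both Nef-sp-/- values lay between those of the heterozygotes, and the log2 fold change was -0.01 (95% interval -0.21 to 0.19). SSU, the entry named for the small-subunit rRNA, had sense counts of 212 and 589 against 376 and 403. The Nef-sp+/- libraries were the lowest and the highest of the 4, and the log2 fold change was -0.07 (SE 0.30). Without Nef-sp+/- replicate 2 it was 0.88 and without Nef-sp+/- replicate 1 it was -0.59, so that its sign rested on which heterozygous library was kept. The ratio of LSU to SSU sense reads was 2573 and 990 in heterozygous against 1487 and 1388 in homozygous libraries. All rRNA values are what remained after Ribo-Zero, and a difference between libraries in that removal cannot be told apart from a difference in rRNA.

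The antisense rRNA reads carried the widest difference between the genotypes. LSU had normalized antisense counts of 5943 and 10665 in heterozygous against 19858 and 13347 in homozygous libraries. SSU had 8495 and 16040 against 33370 and 20341. For both elements the order of the libraries was the same, with Nef-sp+/- replicate 1 the lowest, Nef-sp-/- replicate 1 the highest, and the other 2 between them.
The log2 fold change was 0.999 (SE 0.23) for LSU and 1.13 (SE 0.25) for SSU, each with an edgeR adjusted p of 0.119. No antisense member passed an adjusted p of 0.05 with edgeR or DESeq2, and the background was 0% of 553 repeat antisense entries. These 2 were the only members at an unadjusted p below 0.05, with either tool. edgeR gave 2.35% of all entries tested, 1.45% in the higher direction, and the share with DESeq2 was not computed. LSU and SSU were also the only members in which both homozygous libraries lay above both heterozygous ones, a background of 11.4%. In 3 members (4.5SRNA, U6 and tRNA-Gln-CAA_) they lay below, a background of 12.8%. The log2 fold change was below 0 in 12 of the 19 members tested and in 45.4% of all antisense entries. Without Nef-sp+/- replicate 1 the log2 fold changes were 0.64 for LSU and 0.74 for SSU. They were 1.47 and 1.65 without Nef-sp+/- replicate 2, 0.68 and 0.73 without Nef-sp-/- replicate 1, and 1.26 and 1.44 without Nef-sp-/- replicate 2. Each of these fits leaves a genotype with 1 library, so that their p-values are not given.
SSU and LSU antisense reads kept a ratio of 1.43 and 1.504 in heterozygous against 1.68 and 1.52 in homozygous libraries, a much narrower range than that of either count. 5S had antisense counts of 59.96 and 68.9 against 64.3 and 55.3, with overlap and a log2 fold change of -0.12 (SE 0.22).

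**Figure D3:**
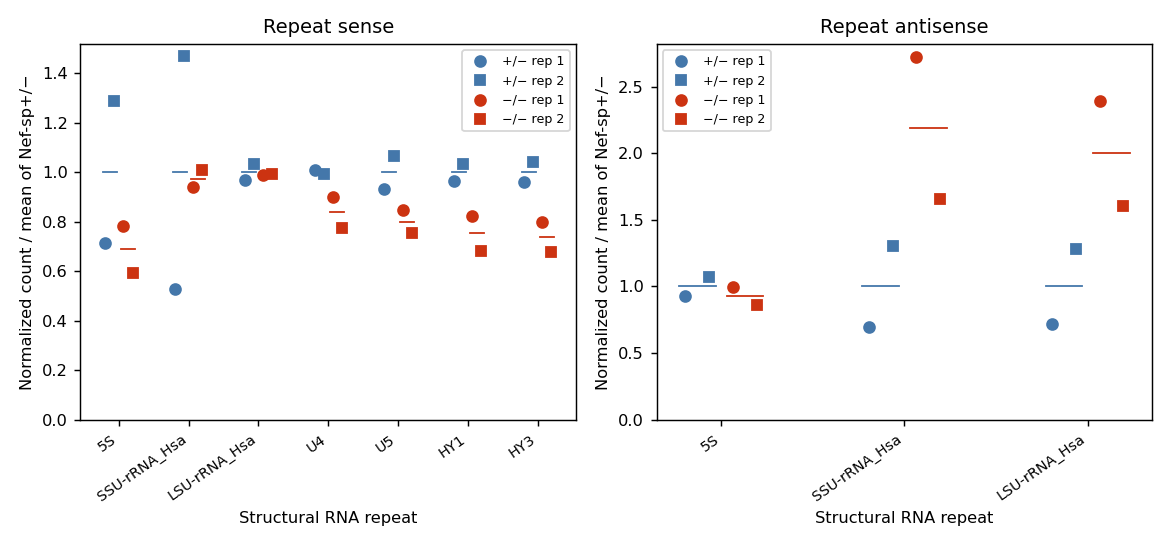
Normalized count of each library divided by the mean of the Nef-sp+/- libraries (y axis, linear from 0) for selected elements (x axis), repeat sense on the left and repeat antisense on the right. Circles are replicate 1, squares replicate 2, and short lines genotype means. Antisense SSU and LSU are above 1.5 in both Nef-sp-/- libraries, sense 5S and SSU are spread mainly between the Nef-sp+/- libraries, and U4, U5, HY1 and HY3 are below the heterozygotes in both Nef-sp-/- libraries.

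Whether the genotype effect of an element differed between its strands was tested directly in 1 fit over repeats listed on both strands. Of 632 such repeats 478 were tested, 15 of them structural. None passed an adjusted p of 0.05 with edgeR (background 0%), and 17 repeats (3.56%) had an unadjusted p below 0.05. LSU and SSU were the 2 structural elements among these 17 and had the smallest and second smallest p of all. The sense minus antisense difference in log2 fold change was -1.04 for LSU (SE 0.22) and -1.06 for SSU (SE 0.23), each with an adjusted p of 0.221. With each library left out, the difference for LSU ran from -1.41 (without Nef-sp+/- replicate 2) to -0.67 (without Nef-sp+/- replicate 1). For SSU it ran from -1.48 (without Nef-sp-/- replicate 2) to -0.67 (without Nef-sp-/- replicate 1). The p-values of these fits are not given, because a genotype is left with 1 library.

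7SL and 7SK were the most read of the structural RNAs and differed little. 7SL had normalized sense counts of 1184800 and 1299880 in heterozygous against 1279050 and 1167790 in homozygous libraries, a log2 fold change of -0.02 (95% interval -0.24 to 0.20). 7SK had 646881 and 669929 against 648380 and 579390, a log2 fold change of -0.10 (95% interval -0.31 to 0.11). For both RNAs the libraries of the genotypes overlapped on this scale, whereas in RPM, which scales to all categories, 7SK did not. Their antisense log2 fold changes were -0.08 for 7SL (SE 0.11) and -0.28 for 7SK (SE 0.20), on counts of 921 to 1096 and 82.9 to 121. Antisense 7SK also overlapped on this scale, with 107.7 and 121.4 in heterozygous against 108.0 and 82.9 in homozygous libraries.

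Among the spliceosomal snRNAs, the U4 and U5 values separated the genotypes furthest. U4, which escorts U6 into the spliceosome, had normalized sense counts of 6327 and 6217 in heterozygous against 5652 and 4859 in homozygous libraries. U5, which holds the exon ends together, had 1736 and 1984 against 1573 and 1401. For both, every Nef-sp-/- library was below every Nef-sp+/- library.
The log2 fold change was -0.26 for U4 (SE 0.09, edgeR p 0.0127, adjusted p 0.488) and -0.32 for U5 (SE 0.09, p 0.00441, adjusted p 0.290). U1, which recognizes the 5′ splice site through the bases in capitals above, had 148169 and 153952 against 139831 and 130216 (log2 fold change -0.16, SE 0.09). U2, which binds the branch point, had 207709 and 213578 against 206189 and 179055 (-0.13, SE 0.10). The genotypes did not overlap for U1 or U2 either, but neither reached an unadjusted p of 0.05.
U6, the catalytic snRNA, differed from these 4 in order, with 98.0 and 94.4 against 113 and 95.9 sense counts and a log2 fold change of 0.12 (SE 0.16). The ratio of U2 to U1 sense reads stayed between 1.38 and 1.47 in the 4 libraries. The ratio of U5 to U1 reads was 0.0117 and 0.0129 in heterozygous against 0.0113 and 0.0108 in homozygous libraries. U7, which directs the 3′ end of histone mRNA, had 50.7 and 46.8 against 45.3 and 47.4 (log2 fold change -0.06, SE 0.20).

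The table also files several nucleolar RNAs under snRNA. U3, which acts in the first cleavages of the rRNA precursor, had normalized sense counts of 24036 and 24687 in heterozygous against 22856 and 23020 in homozygous libraries, without overlap (log2 fold change -0.09, SE 0.08, edgeR p 0.297). U17, another RNA needed for rRNA processing, had 5518 and 5701 against 5836 and 5455 (0.01, SE 0.08). U8, which acts in large-subunit rRNA maturation, had 73.3 and 55.6 against 63.2 and 56.2 (-0.08, SE 0.20). These 3 showed log2 fold changes between -0.09 and 0.01.
U13 was counted at 72.1 and 67.3 against 41.7 and 46.3, with both Nef-sp-/- libraries well below both heterozygous ones. Its log2 fold change of -0.65 (SE 0.19, edgeR p 0.00515, adjusted p 0.298) was the most negative of the snRNA class, on fewer than 80 normalized counts per library. U14, which pairs with small-subunit rRNA, had 13.5 and 10.2 against 16.7 and 11.02, with overlap (0.25, SE 0.44). Antisense counts of the U RNAs were low. U2 (-0.12), U3 (-0.10), U5 (-0.02) and U17 (0.11) overlapped between genotypes on the antisense strand, and U6 had 59.96 and 74.9 against 59.5 and 42.5 (-0.43, SE 0.25, p 0.105).

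The Y RNAs, bound by the Ro protein, were the scRNAs with the clearest separation. HY3 had normalized sense counts of 554 and 602 in heterozygous against 462 and 391 in homozygous libraries. HY1 had 248 and 266 against 211 and 175. Both RNAs were below the heterozygotes in each Nef-sp-/- library.
The log2 fold change was -0.44 for HY3 (SE 0.12, edgeR p 0.00209, adjusted p 0.242) and -0.42 for HY1 (SE 0.14, p 0.0108, adjusted p 0.446). HY3 had the smallest p of the sense members. The ratio of HY3 to HY1 reads was 2.24 and 2.27 in heterozygous against 2.19 and 2.23 in homozygous libraries. Neither Y RNA was listed on the antisense strand.
BC1_Mm, the rodent RNA best known from neurons, had sense counts of 1782 and 1799 against 1743 and 1542 (-0.13, SE 0.09) and antisense counts of 560 and 597 against 593 and 556 (-0.01, SE 0.11). 4.5SRNA, a small rodent RNA, had sense counts of 2926 and 2227 against 1868 and 2405 and a log2 fold change of -0.27 (SE 0.13, p 0.0639). Its libraries overlapped, and its value was -0.05 without Nef-sp+/- replicate 1 and -0.46 without Nef-sp+/- replicate 2. Its antisense counts of 53.3 and 41.2 against 31.6 and 39.3 gave -0.39 (SE 0.27), without overlap.

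tRNA reads were few and came from a handful of elements. The table held nuclear tRNAs of 7 amino acids on the sense strand and 8 on the antisense strand, and a mitochondrial tRNA of leucine and of serine on both. Alanine tRNAs made up 54.2% of the sense tRNA reads and mitochondrial tRNA-Leu-TTA(m) 36.2%. On the antisense strand, mitochondrial tRNA-Ser-TCA(m) alone made up 97.7%. The sequences of the 2 mitochondrial tRNAs are printed above.
tRNA-Leu-TTA(m) had normalized sense counts of 238 and 242 in heterozygous against 231 and 201 in homozygous libraries (log2 fold change -0.15, SE 0.13). tRNA-Ala-GCA had 190 and 192 against 184 and 151 (-0.19, SE 0.14). Both Nef-sp-/- libraries were the lower ones for each of them. tRNA-Ala-GCY_ had 153 and 149 against 169 and 161, with the Nef-sp-/- libraries higher (0.13, SE 0.14), and so had tRNA-Gly-GGA, with 9.02 and 13.2 against 14.3 and 15.4 (0.37, SE 0.42).
tRNA-Asn-AAC had 18.0 and 21.2 against 13.1 and 7.72 (-0.94, SE 0.41, edgeR p 0.0392, adjusted p 0.925), the most negative sense value, on 63 reads in all. The 3 arginine tRNA entries, AGA, CGA and CGY_, held 18 and 30 raw reads in heterozygous against 19 and 12 in homozygous libraries and were too low to test. tRNA-Ala-GCG and tRNA-Ser-TCG held 18 sense reads each and were also too low. tRNA-Met_ was listed only on the antisense strand, with 5 reads in all. A difference in an arginine or methionine tRNA was therefore not detectable from so few reads. The counts do not give the position of a read in an element, so that trimming of 3′ ends was not tested.
tRNA-Ser-TCA(m) had antisense counts of 13258 and 13957 against 14450 and 13069, so that the genotypes overlapped (0.02, SE 0.12). The other antisense tRNAs that were tested were at counts of 176 or fewer per library, with log2 fold changes of 0.06 for tRNA-Ala-GCY_, 0.12 for tRNA-Ala-GCA, -0.04 for tRNA-Ala-GCY, -0.11 for tRNA-Gly-GGA, 0.08 for tRNA-Tyr-TAC and -0.45 for tRNA-Gln-CAA_. Only tRNA-Gln-CAA_ did not overlap, at 11.1 and 12.0 against 7.28 and 9.56 counts. tRNA-Lys-AAG, with 44 antisense reads in all, was too low to test.

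The strand on which an element was read depended strongly on the element. The share of antisense reads over the 4 libraries was 0.00554% for U1 (Wilson 95% interval 0.00393% to 0.00782%), 0.0166% for 7SK, 0.0579% for U2 and 0.0808% for 7SL. It was 2.10% for LSU, 10.8% for U5, 16.7% for 5S, 25.1% for BC1_Mm and 37.9% for U6. SSU and tRNA-Ser-TCA(m) were read almost entirely on the opposite strand, at 97.8% (97.7% to 97.9%) and 99.98% (99.97% to 99.99%). The intervals cover counting error only.
Of the 20 structural elements with at least 100 reads, 5 had more than 50% antisense reads and 7 had less than 1%, with a median of 6.47%. For the 549 other repeats of that depth the median was 43.8%, with 237 above 50% and 11 below 1%. These medians describe single elements and were not tested.
Between libraries, the antisense share of LSU was 1.09% and 1.75% in heterozygous against 3.38% and 2.41% in homozygous libraries, with no overlap of the Wilson intervals of any 2 libraries. SSU ranged from 96.4% to 98.9%, and its genotypes did not overlap either. Of the 54778 reads of tRNA-Ser-TCA(m), 10 were in the direction of the element. The mt-Ts1 gene lies on the minus strand of chromosome M and mt-Co1, which ends over its last 3 bases, on the plus strand. The place of origin of the reads was not tested. tRNA-Leu-TTA(m), matched to mt-Tl1, had 1.29% antisense reads.

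**Figure D4:**
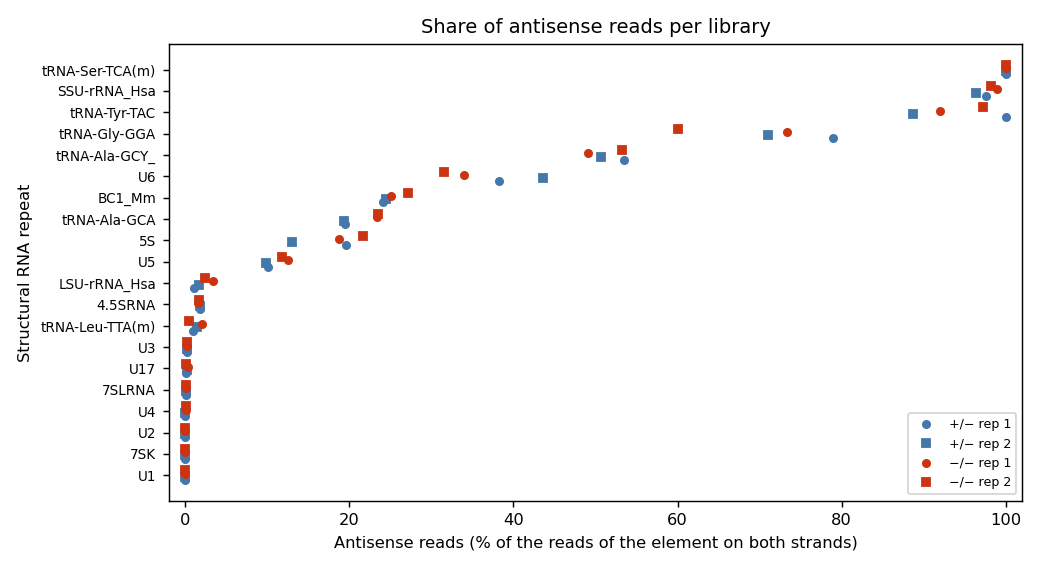
Antisense reads as a percentage of the reads of an element on both strands (x axis) for the 20 structural elements with at least 100 reads (y axis), 1 point per library, coloured by genotype. The elements run from U1 near 0 to tRNA-Ser-TCA(m) near 100. On this scale the widest spread between libraries is in elements with few reads, while LSU runs from 1.09% to 3.38%.

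The genes that make these RNAs, process them or bind them were compared as well. Of 105 such genes 101 were listed and 99 tested over exons on the sense strand. None rose or fell at an adjusted p of 0.05 with edgeR or DESeq2. Of the 10728 genes tested, 0.00932% did with edgeR, which is Nef-sp alone, and 0.0186% with DESeq2. At an unadjusted p below 0.05 there were 2 with edgeR, where 4.8% of all genes were. DESeq2 gave 0, and its share over all genes was not computed. The log2 fold changes of the 99 were above 0 in 41 and below 0 in 58, where 50.1% of all genes were below 0. Their median was -0.02, and the median of all genes was -0.00022.
Lsm4, a protein of the ring around U6, had normalized counts of 1059 and 1058 in heterozygous against 963 and 906 in homozygous libraries (-0.18). Pop1, a subunit of RNase P, which cuts the 5′ end of tRNA, had 19.6 and 16.9 against 27.7 and 28.4 (0.64, SE 0.28). These 2 genes had an adjusted p of 0.954. In each of the lists the genes with the smallest p values were Ttf1 (0.16) and Znrd1 (-0.16) for RNA polymerase I, Gtf3a (-0.36) and Polr3d (-0.30) for RNA polymerase III, Lsm4 and Snrpn (0.25) for the spliceosomal snRNPs, Pop1 and Pop5 (-0.26) for tRNA end processing, and Hexim1 (-0.18) and Srp68 (-0.06) for the proteins bound to 7SL, 7SK and Y RNA. Gtf3a encodes the transcription factor that binds the 5S gene, and Hexim1 the protein through which 7SK holds P-TEFb. Trove2, which encodes the Ro protein of the Y RNAs, had too few reads to test. In whole testis, fewer cells that make an RNA and less of that RNA per cell cannot be told apart.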

How the data were processed

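RNA from testes of homozygous (Nef-sp-/-) and heterozygous (Nef-sp+/-) males was sequenced in 2 libraries each, grouped by the sample labels. The authors used tools of their own to trim adapters and map to mm9, retained only reads that matched perfectly, and deposited raw read counts for every feature by annotation category and strand. The rule for reads matching more than 1 place, which could split or repeat the counts of multicopy elements, is not given in the sources used here. The deposited table also holds a mean normalized signal, a log2 fold change and p-values from the DESeq2 comparison made by the authors, none of which was used.

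Structural RNA repeats were taken by class name. Counts were tested within each category, over all its features, with edgeR 4.0.16 in R 4.3.3 (TMM normalization, filterByExpr with a minimum count of 10, quasi-likelihood test, no covariates, Benjamini-Hochberg adjustment, threshold 0.05). The difference between strands was a strand by genotype term with library as a block, over repeats on both strands. For normalized counts, each library was scaled to the mean effective (TMM) library size of the category. Log2 fold changes are Nef-sp-/- over Nef-sp+/-. The scripts were tested on simulated counts. Totals were 20659865 to 34442517 reads per library.

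Named are all tested rRNA, snRNA, scRNA, srpRNA and RNA class members, the 8 tRNA members with most reads per strand, those of arginine and methionine and any with an unadjusted p below 0.05, and 2 genes with the smallest p per gene list. Members and lists were chosen with earlier results of these data known, and the cell markers after the values of the repeats were seen. Alternatives were DESeq2 size factors, the library size over all categories, other filters, DESeq2 1.42.0, a single fit over all categories, a replicate block and each library left out. Sequences were read from mm9 with GENCODE vM1, with gene symbols matched through RefSeq names. Sequences of some elements are not reported here. Wilson intervals were computed with scipy 1.17.1 and figures drawn with matplotlib 3.10.9.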

Additional observations from a re-analysis of the deposited data

How the results depend on the processing

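Calls were few and depended on single libraries. On the sense strand 0 members passed the threshold, 6 with the crossed replicate block, which was added after the data were seen (14 of 578 entries, 2.42%), and 0 to 4 when each library was left out (0% to 1.7% of entries). On the antisense strand 0 passed, 2 (LSU and SSU) with the replicate block (3 of 553 entries, 0.542%), 2 with the crossed replicate block (7 entries, 1.27%) and 0 to 2 when each library was left out (0.173% to 0.696%). The block left the sense count at 0. The labels do not say that equal numbers mark a litter or a day, and deviations of same-numbered libraries correlated at -0.21 (repeat sense) and -0.29 (repeat antisense), so that the numbers were not taken to pair the libraries. The difference between strands gave 0, and 0 to 2 when each library was left out (0% to 0.607% of repeats). DESeq2, DESeq2 size factors, the library size over all categories, the other filters and the single fit over all categories each gave 0 on both strands where they were run, and no setting gave a call in the gene lists. No replicate block was run for the strand difference, which already has library as a block.

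Of 522 values of 44 members under the alternatives, 38 in 19 members changed sign, and 4 of these moved by more than their standard error. With each library left out, these ran from -0.86 to 0.73 for U17 antisense (lowest without Nef-sp-/- replicate 1), from -0.21 to 0.14 for U5 antisense and from -0.57 to 0.27 for tRNA-Gly-GGA antisense (both highest without Nef-sp-/- replicate 2), and from -0.59 to 0.88 for SSU sense (highest without Nef-sp+/- replicate 2). As shares of their own category, the log2 ratios of summed reads were 0.018 for srpRNA sense, -0.014 for all sense, -0.078 for tRNA, -0.163 for snRNA, -0.130 for scRNA, -0.169 for srpRNA and -0.357 for 7SK antisense, and srpRNA sense was -0.022 by TMM. When each library was left out, the log2 ratio of summed reads ran from -0.0695 to 0.0768 for rRNA sense, from -0.160 to -0.0913 for snRNA sense and from -0.318 to -0.156 for 7SK antisense. The causes were not tested. With 2 libraries per genotype and few tRNA reads, small differences were not detectable.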

Other observations

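A separate category of annotated noncoding RNAs held other structural RNAs, which were picked by name with their values known. RNase MRP RNA, the RNA of the enzyme that cuts the rRNA precursor, was listed as 2 entries. The more abundant, RNase_MRP_RNA.2.1, had normalized counts of 35306 and 36577 in heterozygous (Nef-sp+/-) against 38718 and 37742 in homozygous (Nef-sp-/-) libraries, with both Nef-sp-/- libraries higher (log2 fold change 0.09, SE 0.04, edgeR adjusted p 0.755 over 68 entries). The other, RNase_MRP_RNA.1.1, had 5230 and 5443 against 5546 and 5162, with overlap (0.0046, SE 0.06). U12, the minor spliceosome counterpart of U2, had 1350 and 1548 against 1402 and 1210 for its entry u12_snRNA.1.2 (-0.15, SE 0.10). Its entry u12_snRNA.1.1 had 680 and 708 against 682 and 608, with overlap (-0.11, SE 0.09). vault_RNA.1.1, an RNA of vault particles, had 88.7 and 96.6 against 81.2 and 84.1, with both Nef-sp-/- libraries lower (-0.17, SE 0.13). The adjusted p of the U12, valine tRNA and vault entries was also 0.755.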
